A study of Mus musculus with 15 samples.

Results

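The platelet-derived growth factor (PDGF) family of the mouse has 4 ligand genes, Pdgfa, Pdgfb, Pdgfc and Pdgfd, and 2 receptor genes, Pdgfra and Pdgfrb. All 6 were looked up by symbol among the 55487 genes of the deposited table, and all 6 passed the filter on low counts that left 16678 tested genes. The libraries held polyA RNA of TTF cells, an abbreviation usually read as tail-tip fibroblasts, from female C57BL6/CAST hybrid mice, and both groups share that sex and strain. Wild-type cells gave libraries WT 1, WT 2 and WT 3, and cells with the genotype SIRT7-KO gave KO 2, KO 9 and KO 22, named by the numbers in their column names. Triplets of values below follow that order. The knockout libraries are also called lines, though the number of KO 2 could be that of a line or of a replicate. The labels give no age and no treatment of these groups, and do not say whether the wild-type libraries came from separate animals or cultures. The titles matched by KO 9 and KO 22 follow another naming scheme than those of wild type, and no label says that the groups were prepared or sequenced together. A difference of genotype and a difference between such sets of libraries cannot be told apart in any comparison below. Every p-value reflects only how these libraries scatter, which may be technical. The family was selected on the total counts of knockout against wild type, in which the difference of Pdgfd was already known. Values of that contrast are a description here and carry no p for the 6 genes.

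PDGF ligands are secreted dimers that bind receptor tyrosine kinases on mesenchymal cells such as fibroblasts, pericytes and smooth muscle cells. PDGF-A and PDGF-B are secreted in active form, whereas PDGF-C and PDGF-D carry a CUB domain that proteases must remove before the ligand can bind. The PDGF-A and PDGF-C dimers act mainly through the receptor encoded by Pdgfra, PDGF-D acts mainly through the one encoded by Pdgfrb, and PDGF-B binds both. Receptor dimers then recruit adaptors, phosphoinositide 3-kinase and the RAS-ERK cascade, which drive proliferation, migration and matrix production in fibroblasts.

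The knockout lines had more Pdgfd and more Pdgfb transcript than wild type, the same level of Pdgfrb to within a few percent, and unequal levels of Pdgfra. Pdgfd was 6.86-fold and Pdgfb 4.19-fold higher on average. Pdgfra was 7.68-fold and 6.40-fold lower in KO 2 and KO 9 and at the wild-type level in KO 22. Pdgfd came from genome 1 in both groups, and Pdgfb mainly from genome 2.

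The promoter sequences of Pdgfd and Pdgfra are shown because these genes carry the most uniform and the least uniform of the large differences. Each run is the 250 bases before the RefSeq start of transcription in GRCm38.p6, read 5′ to 3′ on the gene's plus strand, with CG dinucleotides in capitals. Pdgfd lies at chr9:6168236-6168485 and Pdgfra at chr5:75152001-75152250.
Pdgfd: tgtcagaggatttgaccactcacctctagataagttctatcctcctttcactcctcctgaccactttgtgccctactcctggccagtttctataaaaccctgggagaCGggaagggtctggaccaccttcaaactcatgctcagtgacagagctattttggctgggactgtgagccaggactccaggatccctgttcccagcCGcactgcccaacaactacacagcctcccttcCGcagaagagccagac
Pdgfra: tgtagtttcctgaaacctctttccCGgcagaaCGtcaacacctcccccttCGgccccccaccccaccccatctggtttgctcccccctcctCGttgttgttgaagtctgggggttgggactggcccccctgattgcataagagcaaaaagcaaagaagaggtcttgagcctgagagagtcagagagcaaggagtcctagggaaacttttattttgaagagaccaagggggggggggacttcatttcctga
The Pdgfd window held 3 CG dinucleotides at 53.6% G and C, and the Pdgfra window held 4 at 54.4%. The median over 32851 promoter windows of this length was 6 CG dinucleotides and 52.4% G and C. The letters TATAAA, searched on both strands, were present in the Pdgfd window and in 12.4% of all windows. Neither printed window held GGGCGG, the core letters of a GC box, which 32.7% of all windows held on either strand. For comparison, the Pdgfc window had 3 CG dinucleotides, and the 2 windows of Pdgfa had 19 and 28 and both held GGGCGG. Windows were found for 4 of the 6 genes, and Pdgfb and Pdgfrb were not among them.

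Depth was even, with 61065582 to 61506413 gene counts per library. Pearson's r of log2 CPM across genes was 0.9922 to 0.9928 between wild-type libraries, 0.9509 to 0.9684 between knockout libraries and 0.9456 to 0.9596 between the groups. The median coefficient of variation of counts per 1e6 gene counts (CPM) was 5.65% in wild type and 17.3% in knockout over 13235 genes with a mean of at least 1 CPM. Sirt7, the targeted gene, had 833, 1107 and 598 counts in wild type against 512, 694 and 787 in knockout, so its total did not separate the groups. Of its protein-coding transcripts, Sirt7-201 had 53, 58 and 159 counts against 2, 0 and 0, and Sirt7-207 had 118, 11 and 68 against 60, 129 and 0. The split table gave Sirt7-201 23 genome 1 and 63 genome 2 counts in KO 9 and 13 genome 2 counts in KO 22, so the transcript estimates are no clean check of the labels. Collagen genes that mark fibroblasts were abundant in every library, Col1a1 leading at 7408 ± 36.1 CPM (SD, n = 3) in wild type. Summed endothelial markers, led by Tek, stayed at or below 5.60 CPM, epithelial at or below 0.310 and skeletal muscle at or below 0.0327, with Cdh5, Tie1, Myod1, Pax7 and Myog at 0 in every library. Summed macrophage markers reached at most 6.19 CPM, nearly all from Cd68, with Adgre1, C1qa, C1qb and Tyrobp at 0. In bulk RNA, fewer cells of a type and less RNA per cell cannot be told apart.

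Pdgfd, the ligand of the beta receptor, was the lowest member in wild type and differed most between the groups. The gene (ENSMUSG00000032006) lies on the plus strand of chromosome 9 at 6168584 to 6378850 in GRCm38. Wild-type libraries held 4.77, 4.23 and 3.09 CPM of it, against 28.8, 27.1 and 25.3 CPM in knockout. All 3 knockout libraries were several-fold above all 3 wild-type libraries, with a narrow spread among them. The means were 4.03 ± 0.857 and 27.1 ± 1.71 CPM (SD, n = 3 each), and the log2 fold change was 2.78 with a standard error (SE) of 0.19. The coefficient of variation of Pdgfd among the knockout libraries, 6.33%, was above that of only 10.3% of genes. Among the wild-type libraries, with 190 to 291 counts, it was 21.3%, above that of 91.8% of genes. The 3 annotated transcripts of Pdgfd, all protein-coding, were each higher in every knockout library. For Pdgfd-201 the counts were 72, 59 and 70 in wild type against 792, 893 and 619 in knockout. Pdgfd-203 had 215, 191 and 112 against 855, 673 and 807, and Pdgfd-202 had 4, 10 and 8 against 110, 102 and 125. The share of Pdgfd-201 was 24.7%, 22.7% and 36.8% in wild type and 45.1%, 53.5% and 39.9% in knockout, without overlap between the groups. Transcript values rest on an estimated division of shared reads that was unstable for Pdgfd too: in WT 1 the split table gave Pdgfd-202 87 genome 1 counts where the whole-read table gave it 4. They were not tested.

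Pdgfb encodes the chain that binds both receptors and is known for recruiting pericytes to vessels. The gene (ENSMUSG00000000489) lies on the minus strand of chromosome 15 at 79995874 to 80014977. Wild-type libraries had 15.0, 13.9 and 13.8 CPM, and KO 2, 9 and 22 had 43.3, 36.7 and 93.8 CPM. The groups did not overlap, and KO 22 stood well above the other knockout libraries, at 6.60 times the wild-type mean against 3.05 and 2.59 times. The means were 14.2 ± 0.697 and 58.0 ± 31.2 CPM (SD, n = 3 each), with a log2 fold change of 2.07 (SE 0.37). Without KO 22 the log2 fold change was 1.51. Over 95% of its counts in each library belonged to one transcript, Pdgfb-201, with shares from 95.5% to 97.5%.

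Pdgfa and Pdgfc, the ligands of the alpha receptor, had the same mean level in both groups within the spread. Pdgfa (ENSMUSG00000025856), the chain known for alveolar and glial development, lies on the minus strand of chromosome 5 at 138976014 to 138997370. It had 44.3, 47.4 and 46.3 CPM in wild type and 39.6, 58.1 and 40.1 CPM in knockout, where KO 9 was the highest of all libraries and the other knockout libraries were the lowest. The log2 fold change of Pdgfa was 0.03 (SE 0.17). An antisense gene, 6330403L08Rik, overlaps Pdgfa with 1957 to 2926 counts per library, and no source used here gives the strand setting of the counting, so reads of the pair cannot be told apart. Pdgfc (ENSMUSG00000028019), on the plus strand of chromosome 3 at 81036416 to 81214040, had 40.5, 44.2 and 45.0 CPM in wild type and 30.3, 43.1 and 45.0 CPM in knockout. KO 2 was the lowest library for Pdgfc and the others overlapped, with a log2 fold change of -0.10 (SE 0.17).

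Pdgfra, the alpha receptor and a common marker of fibroblasts, split the knockout lines. The gene (ENSMUSG00000029231) lies on the plus strand of chromosome 5 at 75152292 to 75198215. Wild-type libraries had 68.6, 76.0 and 73.5 CPM, against 9.46, 11.4 and 81.3 CPM in KO 2, 9 and 22. KO 2 was 7.68-fold and KO 9 6.40-fold below the wild-type mean, whereas KO 22 was at 1.12 times that mean, above every wild-type library. The means were 72.7 ± 3.78 and 34.0 ± 40.9 CPM (SD, n = 3 each), and the log2 fold change of -1.04 (SE 0.82) averages over lines that were not alike. The coefficient of variation among knockout libraries, 120%, exceeded that of 98.9% of genes. Thy1, another surface marker of fibroblasts, also varied by line, at 98.6 to 101 CPM in wild type and 21.6, 0.195 and 71.5 CPM in KO 2, 9 and 22. Col1a1, by contrast, was higher in each of KO 2, 9 and 22, at 11534, 14065 and 15827 CPM. Other fibroblast markers did not share a pattern. Fap had 3.68 to 4.45 CPM in wild type and 0.589, 0.992 and 4.30 CPM in KO 2, 9 and 22, as Pdgfra was divided. Dcn was low in KO 9 alone, at 16.4 CPM against 118 to 132 CPM in wild type. Lum was highest in KO 2, at 6.08 CPM, and Prrx1 overlapped between the groups. Whether these marker differences have a part in the Pdgfra values was not tested.

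Pdgfrb, the beta receptor, was the most abundant and least variable member. The gene (ENSMUSG00000024620) lies on the plus strand of chromosome 18 at 61045150 to 61085061. It had 238, 232 and 236 CPM in wild type and 229, 224 and 234 CPM in knockout, ranges that overlap. The log2 fold change was -0.01 with an SE of 0.08, the smallest SE in the family. Its coefficient of variation among knockout libraries, 2.24%, was above that of only 1.21% of genes. Transcript Pdgfrb-201 took 99.9% or more of the counts in every library.

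**Figure D1:**
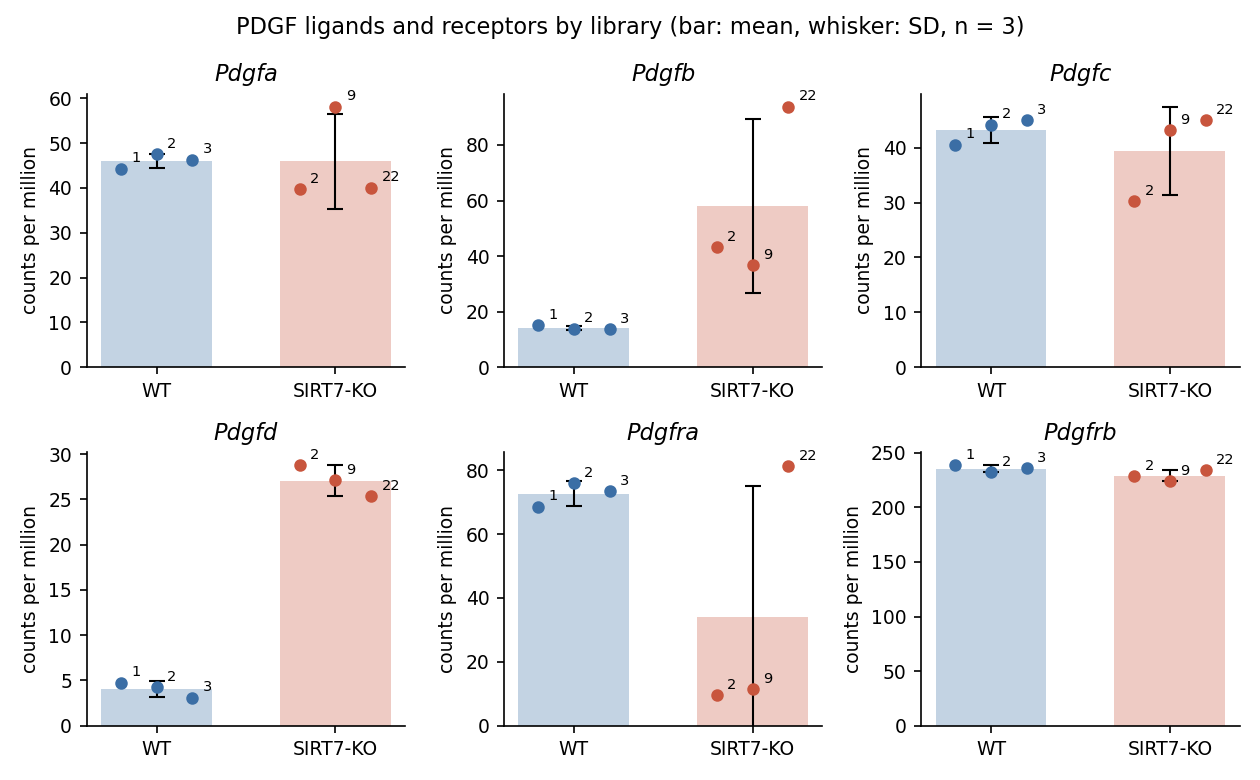
Level of each PDGF gene in CPM (y axis, from 0, with its own scale per panel) in wild type (blue) and SIRT7-KO (red). Points are libraries with their numbers, bars are means and whiskers are SDs over 3 libraries, cut at 0 for Pdgfra in knockout. Pdgfd and Pdgfb lie above wild type in all 3 knockout libraries, and Pdgfra is at 9.46 and 11.4 CPM in KO 2 and KO 9 but 81.3 CPM in KO 22.

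Over all tested genes, edgeR's quasi-likelihood test called 6.73% at a Benjamini-Hochberg adjusted p under 0.05, with 3.54% higher and 3.19% lower in knockout. It called 2 of the 6 members, Pdgfb and Pdgfd, both higher, and since the family was selected on this contrast, nothing is read from that count. The groups did not overlap for the same 2 members and for 35.9% of all tested genes. The call of Pdgfb was lost without any one of WT 1, WT 2 or WT 3 and with no filter on low counts, at nearly the same fold change. Without KO 22, the log2 fold change of Pdgfra was -2.79. Pdgfra was then called too, but the genes called rose from 1123 to 2482, and nothing is read from that call.

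To set the members beside each other, levels were put on a per-length scale, TPM (transcript abundance corrected for length and scaled to the same total in each library), from the deposited transcript counts and annotated lengths. In wild type the order of the TPM levels was Pdgfrb at 77.5 ± 1.24, Pdgfa at 47.5 ± 0.612, Pdgfra at 23.8 ± 1.23, Pdgfc at 23.1 ± 2.75, Pdgfb at 8.90 ± 0.554 and Pdgfd at 2.49 ± 0.520 (SD, n = 3 each). Only the neighbours Pdgfra and Pdgfc did not differ beyond their spread, and their order turned in WT 3 and when lengths of merged exons were used. In knockout the TPM means were 79.3 ± 3.43 for Pdgfrb, 48.0 ± 13.4 for Pdgfa, 38.7 ± 22.5 for Pdgfb, 23.6 ± 4.48 for Pdgfc, 17.7 ± 0.501 for Pdgfd and 12.2 ± 14.6 for Pdgfra (SD, n = 3 each). With lengths of merged exons the order of Pdgfd and Pdgfc turned in knockout, at 24.0 ± 0.926 and 21.8 ± 4.90 (SD, n = 3 each). Pdgfrb kept the first place in all 6 libraries. The last place passed from Pdgfd to Pdgfra in KO 2 and KO 9 and stayed with Pdgfd in KO 22, where Pdgfb was second.

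The make-up of the ligand pool followed from these levels. Summed ligand TPM was 80.0, 81.7 and 84.3 in wild type and 107, 132 and 145 in KO 2, 9 and 22. Every knockout library was above every wild-type library. Pdgfa made up 58.0% ± 1.08 of ligand TPM in wild type and 38.0% ± 10.8 in knockout, and Pdgfc went from 28.1% ± 2.61 to 18.4% ± 1.99 (SD, n = 3 each). The shares of Pdgfb were 10.9% ± 0.950 and 29.5% ± 13.6, and those of Pdgfd 3.05% ± 0.707 and 14.1% ± 2.70. In KO 22 alone Pdgfb was the leading ligand, with 44.4%. These shares were computed with transcript lengths only, and the transcript splits of Pdgfa and Pdgfc were unstable. The ratio of Pdgfrb to Pdgfra TPM was 3.43, 3.02 and 3.34 in wild type, 26.0 in KO 2 and 16.5 in KO 9, and 2.86 in KO 22. On the merged-exon scale the same ratios were 5.58 to 6.36 in wild type and 44.2, 36.1 and 5.27 in KO 2, 9 and 22, so the size of the ratio depends on the length used while the contrast between lines does not.

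The parents of the hybrid differ at many bases, which lets some reads be traced to one of the parental genomes. The table calls these genome 1 and genome 2, and no source used here says which strain is which. The members were not selected on the share of genome 1, so it is tested below. In wild type, 50.7% of 12984 genes tested in an edgeR model of allele counts differed between the genomes at an adjusted p under 0.05, against which 4 of the 6 members passed. Whole chromosomes also varied among the knockout libraries: the genome 1 share of an autosome varied by at most 1.80 percentage points among wild-type libraries and by up to 32.0 among knockout libraries. The share of the rest of the chromosome is therefore given beside each member.

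Pdgfd was read from genome 1 alone in wild type, with 118 of 118, 181 of 181 and 155 of 155 assigned counts. The 0 counts of genome 2 allow shares of up to 2.54%, 1.66% and 1.94% in WT 1, 2 and 3. In KO 2, 9 and 22 genome 1 had 1020 of 1029, 973 of 973 and 870 of 874 counts, or 99.1%, 100% and 99.5%. The rest of chromosome 9 was at 36.3% to 36.8% genome 1 in wild type and at 42.4%, 56.7% and 45.8% in knockout, far from the Pdgfd share. The difference of total Pdgfd between groups was thus one of genome 1 counts, from 2.47 ± 0.510 to 15.6 ± 1.26 CPM of assigned counts (SD, n = 3 each). The genome 2 counts seen, 9 in KO 2 and 4 in KO 22, were at most 0.875% of the assigned counts. The genome difference passed in wild type (edgeR adjusted p = 0.00437). With genome 2 at 0, no fold is given. Limits and intervals of shares cover counting error only.

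Pdgfb was the opposite case, read mostly from genome 2. Genome 1 had 12.0%, 14.0% and 11.5% of the assigned counts in wild type and 4.84%, 15.8% and 19.2% in KO 2, 9 and 22, of 417 to 2874 assigned counts. The wild-type log2 ratio of genome 1 to genome 2 was -2.81 (SE 0.44, edgeR adjusted p = 0.00331), while the rest of chromosome 15 was at 55.9% to 56.4% genome 1 in wild type and at 41.3%, 55.6% and 35.0% in KO 2, 9 and 22. Both alleles of Pdgfb had more CPM on average in knockout, 4.38 ± 4.16 against 0.875 ± 0.0985 for genome 1 and 24.9 ± 11.5 against 6.12 ± 0.207 for genome 2 (SD, n = 3 each). For genome 1 the gain was uneven, since KO 2 had 63 genome 1 counts against 48 to 60 in wild type, and KO 22 had 553. The allelic ratio did not pass for a difference between groups (log2 difference -0.07, SE 0.61, edgeR adjusted p = 0.979), and with an SE of that size a shift could be missed. The median difference of the tested genes of chromosome 15 was -0.73, so Pdgfb stood 0.66 above its chromosome, near the size of its own SE. On the share scale, Pdgfb minus the rest of the chromosome was -43.6 ± 1.52 points in wild type and -30.7 ± 13.0 points in knockout (SD, n = 3 each), without overlap. By this measure the groups did not overlap for Pdgfc, Pdgfd and Pdgfrb either, and overlapped for Pdgfa and Pdgfra. How many of all genes do not overlap by it is not given here.

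Pdgfc leaned to genome 1, and more so in knockout. Its genome 1 share was 82.0%, 79.0% and 78.5% in wild type and 90.3%, 89.7% and 90.1% in knockout, without overlap. In wild type the log2 ratio was 1.99 (SE 0.12, edgeR adjusted p = 8.28e-05). The allelic ratio differed between the groups by 1.18 on the log2 scale (SE 0.16, edgeR adjusted p = 0.00392), and Pdgfc was the only member of 6 to pass, where 23.0% of 12984 tested genes passed. The rest of chromosome 3 moved the same way, from 52.6% to 53.0% genome 1 in wild type to 68.9%, 65.9% and 73.0% in KO 2, 9 and 22. The median difference of the 650 tested genes on chromosome 3 was 1.02, of which 283 passed, so Pdgfc stood 0.16 above its chromosome, about the size of its own SE. On the share scale Pdgfc lay 27.0 ± 2.13 points above the rest of the chromosome in wild type and 20.7 ± 3.36 points above it in knockout (SD, n = 3 each), without overlap, so the direction of its departure from the chromosome depends on the scale. In CPM, genome 1 of Pdgfc had 24.9 ± 0.846 and 25.6 ± 5.16, and genome 2 had 6.31 ± 0.936 and 2.86 ± 0.630 in wild type and knockout (SD, n = 3 each). The total of Pdgfc overlapped between the groups while its genome 2 counts did not.

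The receptors were read from both genomes. Pdgfra had 32.8%, 22.1% and 33.8% genome 1 in wild type and 28.3%, 7.52% and 42.5% in KO 2, 9 and 22, where the rest of chromosome 5 was at 53.5%, 34.7% and 51.1%. Both alleles of Pdgfra were low in KO 2 and KO 9, with 91 and 30 genome 1 counts against 509 to 881 in wild type, and 231 and 369 genome 2 counts against 1524 to 1791. In KO 22, 1268 counts were of genome 1 and 1718 of genome 2. The wild-type bias of Pdgfra toward genome 2 did not pass (log2 ratio -1.27, SE 0.55, edgeR adjusted p = 0.0980), and the groups did not differ in the ratio (log2 difference -0.41, SE 0.80, edgeR adjusted p = 0.778) beyond that spread. Pdgfrb had 62.0%, 62.2% and 62.5% genome 1 in wild type and 55.5%, 57.2% and 70.0% in knockout, with 9891 to 10402 assigned counts. Its wild-type log2 ratio was 0.72 (SE 0.18, edgeR adjusted p = 0.0182), a call lost when any one wild-type library was left out, with adjusted p of 0.0788 to 0.0820. The Pdgfrb share in each knockout line moved in the same direction as the rest of chromosome 18. That rest was at 48.3% to 49.5% in wild type and 46.2%, 46.8% and 62.9% in KO 2, 9 and 22. Pdgfrb lay 13.3 ± 0.686 points above it in wild type and 8.97 ± 1.65 points in knockout (SD, n = 3 each), without overlap. Pdgfa had 40.3%, 44.3% and 35.1% genome 1 in wild type and 48.3%, 32.5% and 42.8% in knockout, and the rest of chromosome 5 was at 45.7% to 46.1% in wild type and at 53.5%, 34.7% and 51.1% in knockout. Neither the wild-type bias (edgeR adjusted p = 0.0596) nor the group difference (edgeR adjusted p = 0.925) passed for Pdgfa.

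**Figure D2:**
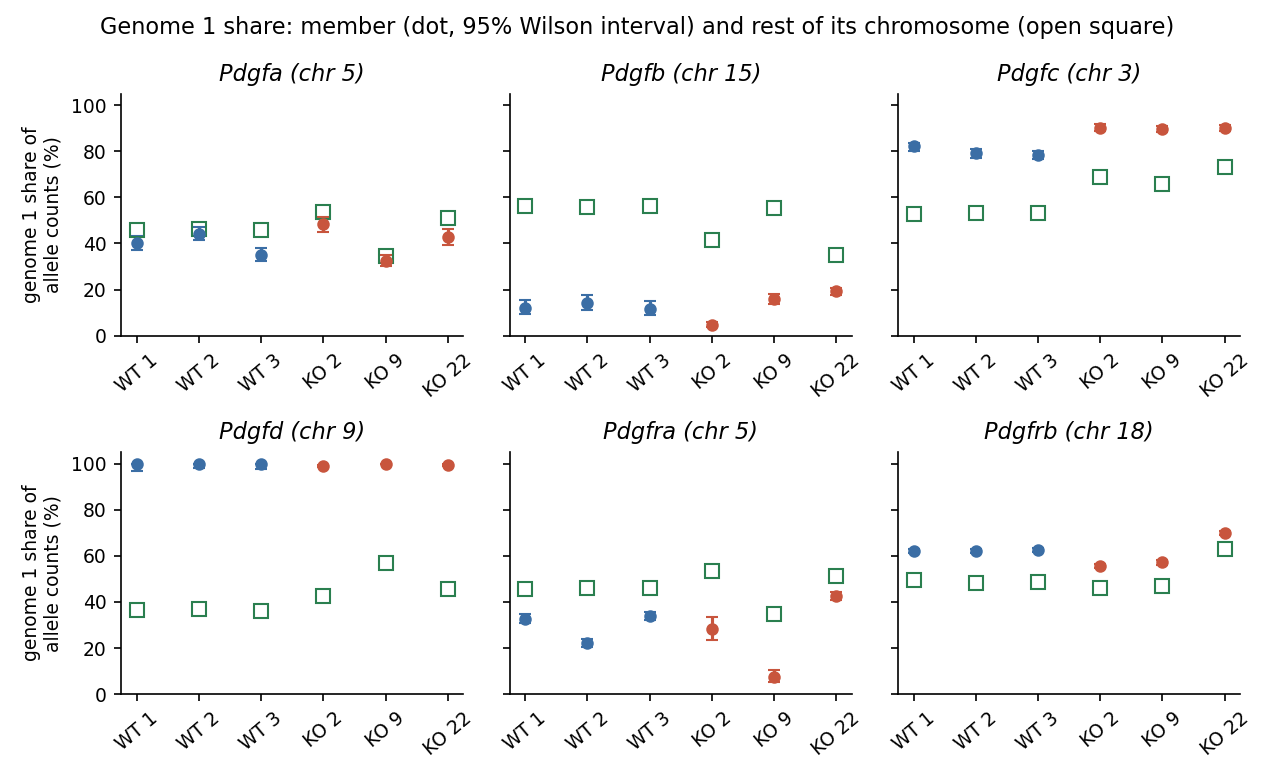
Genome 1 share of allele-assigned counts in percent (y axis) for each PDGF gene in each library (x axis). Filled dots are the member with its 95% Wilson interval, blue for wild type and red for SIRT7-KO, and open squares are all other genes of its chromosome. Pdgfd stays at 99.1% to 100%, Pdgfb at 4.84% to 19.2%, and Pdgfc goes up together with chromosome 3.

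**Figure D3:**
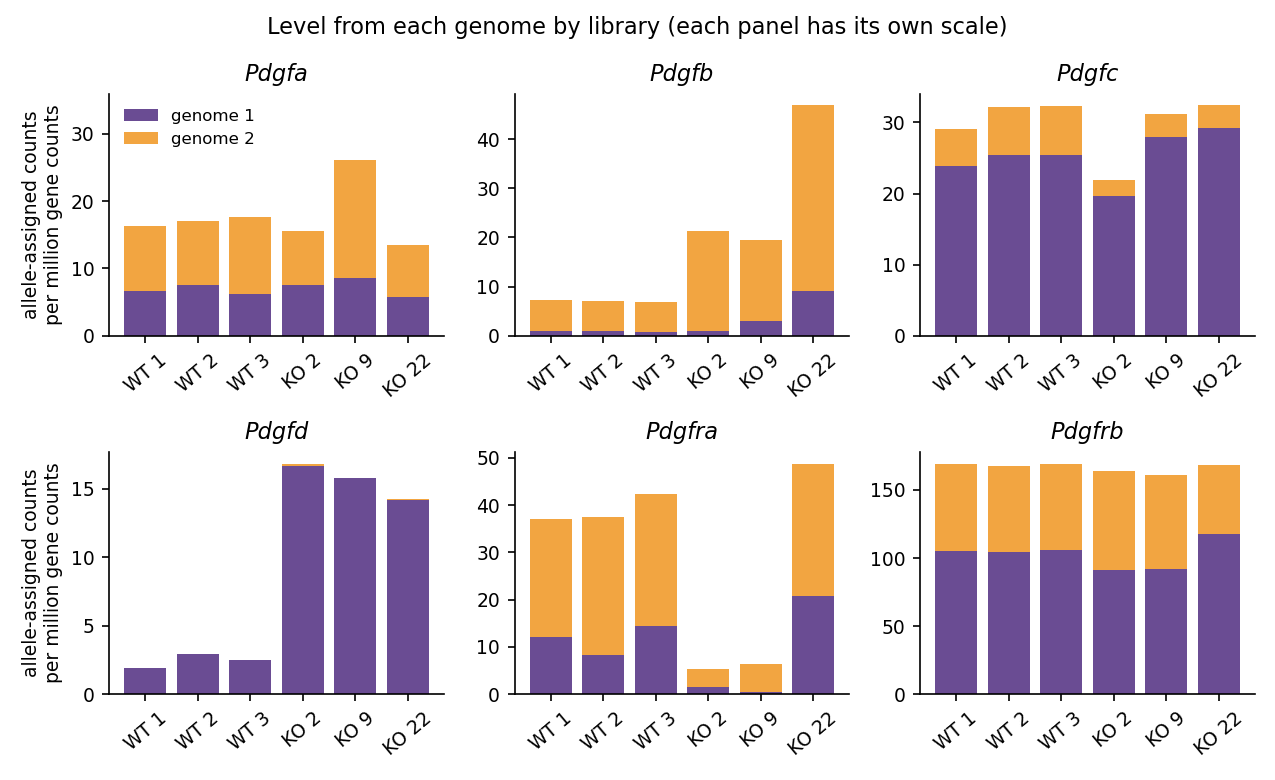
Allele-assigned counts of each PDGF gene as CPM (y axis, from 0, with its own scale per panel) in each library (x axis), stacked by genome. The added Pdgfd in knockout is genome 1, both genomes of Pdgfra are low in KO 2 and KO 9, and genome 2 of Pdgfc is lower in knockout.

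Since whole chromosomes varied among the knockout libraries, each member was set beside the tested genes that start within 1 Mb of its own start. Pdgfb had 47 such neighbours, of which 10 were lower and 0 higher by edgeR (24 at an unadjusted p under 0.05, 17 lower and 2 higher by DESeq2, 11 lower by limma-voom). Their median log2 fold change was -0.36, that of the 686 tested genes of chromosome 15 was -0.24, and that of all tested genes was 0.02. Of those 686 genes 85 were called lower by edgeR, as were 3.19% of all tested genes. Pdgfb therefore differed in the other direction from its surroundings, by 2.30 above the chromosome's median. The nearest called neighbours were Syngr1, a synaptic vesicle protein gene, at 76357 bases with a log2 fold change of -2.52 from a level under 1 CPM, Rpl3, a ribosomal protein gene, at 76891 bases with -0.36, and Mgat3, a glycosyltransferase gene, at 158744 bases with -1.48. Pdgfd had 2 tested neighbours, of which Casp12, a caspase gene, rose with a log2 fold change of 1.42 (SE 0.14, edgeR adjusted p = 0.00724). Its level went from 8.36 to 21.9 CPM, and the median of chromosome 9 was 0.18. Of the 41 neighbours of Pdgfa, 1 was called, the receptor gene Gpr146 with a log2 fold change of 1.23 (SE 0.23, edgeR adjusted p = 0.0325). By edgeR 0 of the 3 neighbours of Pdgfc, 0 of the 6 of Pdgfra and 0 of the 24 of Pdgfrb were called. Of those, 0, 0 and 7 had an unadjusted p under 0.05, DESeq2 called 0, 0 and 4, and limma-voom called 0, 0 and 1. These neighbour calls were made with all 6 libraries, and without WT 1, WT 2 or WT 3 in turn 0 neighbours of any member passed, with 15 to 18 of those of Pdgfb at an unadjusted p under 0.05.

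**Figure D4:**
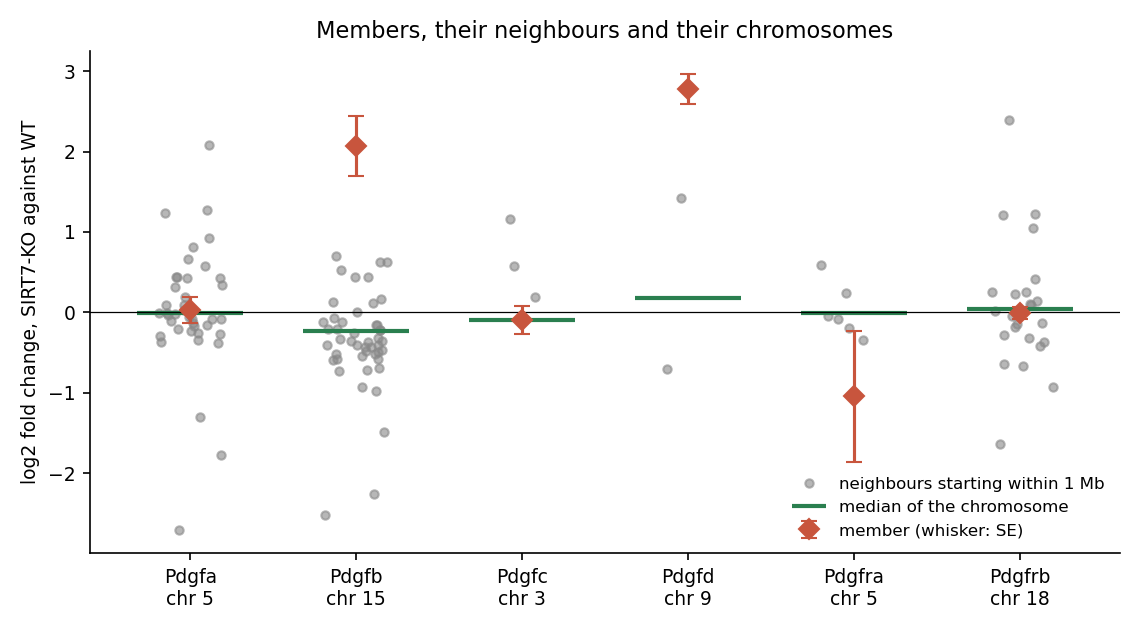
Log2 fold change of SIRT7-KO against wild type (y axis) for each PDGF gene (red diamond, whisker SE), for tested genes that start within 1 Mb (grey dots) and for the median of its chromosome (green line). Pdgfb at 2.07 lies above all of its 47 neighbours, and Pdgfd at 2.78 lies above both of its neighbours.

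Of the other genes of the pathway, 93 in 8 lists were tested, of which 1 rose and 7 fell by edgeR, or 8.60% beside 6.73% of all genes. The median log2 fold change of the 93 was 0.02, the same as over all tested genes. Without WT 1, WT 2 or WT 3, 0 of the 93 passed, with 20 to 21 at an unadjusted p under 0.05. DESeq2 called 10 higher and 11 lower, and limma-voom 1 higher and 7 lower.

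Among the VEGF ligands, the growth factors closest to PDGF in structure, 1 of 5 fell. Vegfa, the main angiogenic factor, had 45.5, 44.6 and 45.6 CPM in wild type and 28.5, 26.7 and 26.6 CPM in knockout (log2 fold change -0.70, SE 0.09, edgeR adjusted p = 0.0125). The knockout libraries were all below wild type by a similar margin. Of the related receptor tyrosine kinases, Kit and Flt3 were at 0 in every library, and neither of the 2 tested passed (0 at an unadjusted p under 0.05, 0 by DESeq2 and 0 by limma-voom). The smallest p was that of Flt4, a VEGF receptor (log2 fold change -0.56, SE 0.27, edgeR adjusted p = 0.243).

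The list of ligand-activating proteases, with related inhibitors and a receptor, had 2 of 8 lower, neither of which encodes a protease. Plaur, the urokinase receptor, had 45.2, 38.1 and 40.3 CPM in wild type and 19.3, 14.1 and 10.6 CPM in knockout (log2 fold change -1.46, SE 0.22, edgeR adjusted p = 0.0190). Serpine2, a protease inhibitor, also fell (edgeR adjusted p = 0.0451), but its level was below 1 CPM in all libraries. Plat, the tissue plasminogen activator known to process PDGF-C, had 80.3 ± 2.12 and 78.6 ± 12.0 CPM in wild type and knockout (SD, n = 3 each). Among the 6 tested ligand-binding proteins and co-receptors 0 passed by edgeR (2 at an unadjusted p under 0.05, 2 by DESeq2 and 0 by limma-voom), and the smallest p was that of the matrix protein Thbs1 (log2 fold change 0.83, SE 0.24, edgeR adjusted p = 0.0899).

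Downstream of the receptors, 0 of 23 adaptors and signalling enzymes passed by edgeR (7 at an unadjusted p under 0.05, 3 by DESeq2 and 0 by limma-voom), with Nck2, an adaptor, at the smallest p (log2 fold change 0.71, SE 0.19, edgeR adjusted p = 0.0713). Of 16 receptor phosphatases, ubiquitin ligases and RAS inhibitors, Spry2 fell. This feedback inhibitor of receptor tyrosine kinases went from 36.4, 33.6 and 34.6 CPM to 24.2, 17.4 and 17.0 CPM (log2 fold change -0.81, SE 0.15, edgeR adjusted p = 0.0353).

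Serum and growth factor response genes had 3 of 20 lower and a median log2 fold change of -0.23. Fosl1, an AP-1 subunit, had 69.8, 62.3 and 78.1 CPM in wild type and 25.0, 13.2 and 12.4 CPM in knockout (log2 fold change -2.03, SE 0.28, edgeR adjusted p = 0.0170). Jun, its AP-1 partner, fell by 0.66 on the log2 scale (SE 0.10, edgeR adjusted p = 0.0180), and the immediate-early gene Ier3 fell by 0.67 (SE 0.13, edgeR adjusted p = 0.0394). All 3 were lower in each knockout library than in any wild-type library. Egr1, a classic response gene of the list, was at 40.2 ± 2.98 and 41.6 ± 9.51 CPM and did not pass, and Fos, at 1.67 to 3.09 CPM over both groups, did not pass either.

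**Figure D5:**
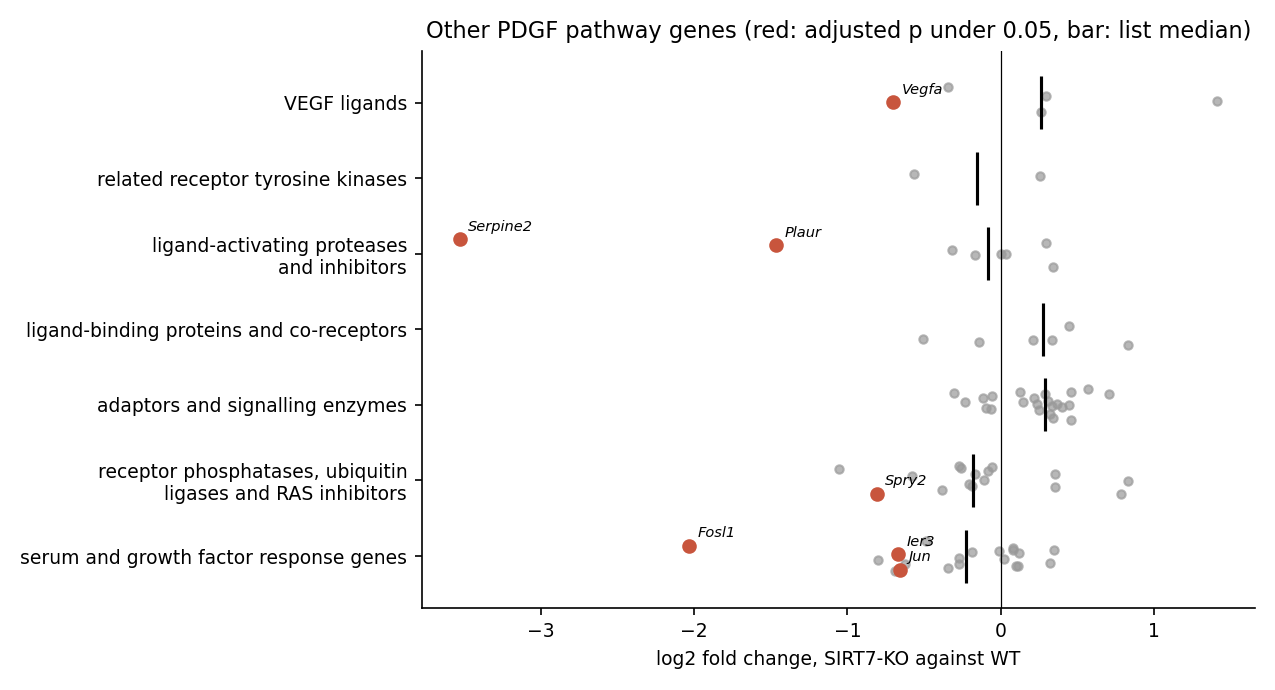
Log2 fold change of SIRT7-KO against wild type (x axis) for the tested genes of 7 PDGF pathway lists (y axis). Red points passed at an edgeR adjusted p under 0.05, grey points did not, and black bars are list medians. The 7 red points drawn all lie below 0, with Fosl1 at -2.03 and Plaur at -1.46 among them. The list that is not reported is not drawn, and the 1 pathway gene that rose is not among the points.

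Markers of contractile and matrix-producing cells, the cell types that carry the beta receptor, were compared in the same fit. Of 10 tested smooth muscle and pericyte markers, 3 rose and 1 fell. Without overlap, 7 of them lay above wild type and 1 below it, where the groups did not overlap for 35.9% of all tested genes. Actg2, smooth muscle gamma actin, went from 340 ± 11.0 to 1290 ± 35.0 CPM (log2 fold change 1.95, SE 0.08, edgeR adjusted p = 0.000750) and Cnn1, a calponin, from 18.4 ± 3.17 to 1.81 ± 0.704 CPM (log2 fold change -3.30, SE 0.34, edgeR adjusted p = 0.00706), with n = 3 each. Their summed level was 9097 to 9977 CPM in wild type and 11449 to 16661 in knockout, most of it from Acta2. Of 10 tested fibroblast markers 3 rose, all collagens, with Col1a2 at a log2 fold change of 1.25 (SE 0.15, edgeR adjusted p = 0.0104) and Col1a1 at 0.93 (SE 0.13, edgeR adjusted p = 0.0175). Of the same 10, 4 lay above wild type without overlap and 2 below it, beside the same 35.9% of all tested genes. Those 2 were Thy1 and Twist2 (means of 75.3 and 55.3 CPM in wild type and knockout), and neither was called. The summed level, most of it from the collagens, was 13002 to 13339 CPM in wild type and 21933 to 30109 in knockout. Without any one wild-type library 0 of these fibroblast markers passed (5 at an unadjusted p under 0.05 each time), and 1 to 2 of the smooth muscle markers did. Summed cartilage markers, led by Sox9, were at 5.70 to 6.67 CPM in wild type and 3.93 to 10.5 in knockout. Summed adipocyte markers, led by Fabp4, were at 19.1 CPM or more in wild type and 4.31 to 41.8 in knockout, and KO 22 had the highest Fabp4 at 39.9 CPM. The part of these markers in the differences of Pdgfd, Pdgfb and Pdgfra was not tested.

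Genes with the pattern most like each member were taken by Pearson's r of log2 CPM over the 6 libraries, among 11570 candidates. These correlations describe 6 points in 2 groups and have no test. Pdgfra was followed most closely by Ahrr, Prickle1 and Fgf7, with r of 0.9996, 0.9986 and 0.9983. Fgf7, a fibroblast growth factor, had 66.6, 79.2 and 72.9 CPM in wild type and 1.31, 1.71 and 70.8 CPM in KO 2, 9 and 22, the same division of the lines as Pdgfra. For Pdgfd the nearest were Isg20, Vax2 and Fam171a1, with r of 0.997 to 0.998, of which Vax2, a homeobox gene, had 2.05 to 2.57 CPM in wild type and 13.8 to 14.7 CPM in knockout. Ust, Rint1 and Daam1 were closest to Pdgfb, at r of 0.998, and all had KO 22 highest. Ccser2, Sgsh and Nr1i3 followed Pdgfa with r of 0.990 to 0.993, and Zfp606, Ints8 and Zfp263 followed Pdgfc with r of 0.989 to 0.994. Those nearest to Pdgfrb, namely Mthfd2l, Setd1b and BC004004, had r of 0.974 to 0.986 over a range of levels that is small for Pdgfrb.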

How the data were processed

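BGI selected polyA RNA and sequenced it, per the labels' protocols. Tools in the submitters' processing notes are HISAT2 2.1.0, StringTie 1.3.3, Trimmomatic 0.36 and DESeq2 1.32.0, and the builds are mm10 or GRCm38. No source used here gives the settings, strand or annotation. Whole-read and genome-split tables of estimated counts, by gene and by transcript, were deposited. These are whole numbers and were used as they are. Names and coordinates came from GENCODE M21, which matched 55227 of 55487 genes, and the unmatched held 0.0319% of counts. Knockout columns 9 and 22 match a title each, whereas column 2 could be either of 2 of the 6 SIRT7-KO samples and was matched to the group only. The 9 other samples of the 15 in the labels were not analysed here.

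Groups were compared with edgeR 4.0.16 (R 4.3.3; quasi-likelihood test, TMM scaling, its default filter on low counts), with Benjamini-Hochberg adjustment over all tested genes and calls at an adjusted p under 0.05. SE is the absolute log2 fold change over the square root of F. CPM is per 1e6 gene counts of a library. Allele counts were fitted in edgeR with terms for library, allele and allele by group, keeping genes that averaged 20 or more assigned counts. Every adjusted p is from one of these edgeR models. Methods were tested on simulated data. Alternatives were DESeq2 1.42.0, limma-voom 3.58.1, other scalings, no filter, other coverage minimums of 10 and 50, limma on logit shares, and each library left out.

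Members and lists were chosen with earlier results of these data known. The text names all 6 members, Sirt7, up to 4 called genes per pathway list by p (or the smallest p), the leading and up to 2 called markers per cell type list, the 3 genes most correlated with each member, and up to 3 called neighbours by distance. A pathway gene that this rule selects is not reported here, nor is its list, though both are in the totals. Thy1, Twist2, Fap, Dcn, Lum, Prrx1, Plat, Egr1 and Fos were added after their values were seen, as were markers at 0.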

Additional observations from a re-analysis of the deposited data

How the results depend on the processing

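The number of genes called in knockout against wild type was 1123 and became 2908 with DESeq2, 396 with no filter on low counts, and 45 to 2482 when one library was left out, lowest without WT 2 and highest without KO 22. Of the PDGF members 2 were called, 1 with no filter on low counts and 1 to 3 with one library left out. Called pathway genes numbered 8, but 21 with DESeq2, 4 with no filter and 0 to 17 with one library left out, 0 without any one of the wild-type libraries, 17 without KO 2 and 15 without KO 22. The cause was not tested. In the allele model, the wild-type bias of Pdgfa passed without KO 2 (edgeR adjusted p = 0.0458) or KO 9 (0.0175), and that of Pdgfra without KO 9 (0.00922). No called value changed direction, and DESeq2 gave no adjusted p for Pdgfra. Log2 fold changes near 0 did change sign, with Pdgfa at -0.18 without KO 9, Pdgfc at 0.07 without KO 2, and Pdgfrb, which stayed within its SE, at 0.0044 without WT 1. The fold changes of Pdgfb and Pdgfra without KO 22, and of Pdgfa without KO 9, moved by more than their SE with all libraries. That of Pdgfrb with the chromosome's median taken out was -0.05, a move within its SE. Of the counts 34 stayed within 1.5 times and 17 did not. No paired analysis was possible because the knockout columns carry the numbers 2, 9 and 22 and the wild-type columns 1, 2 and 3, which share only the number 2. The depth of allele counts limits Pdgfd most, with 118 to 181 assigned counts in wild type.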

Other observations

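The estimated split between transcripts was unstable for Pdgfc and Pdgfa, also within wild type. For the protein-coding Pdgfc-201 the wild-type counts were 2331, 2684 and 1147, against 412, 632 and 2632 in KO 2, 9 and 22. The nonsense-mediated decay transcript Pdgfc-202 ran from 134, 0 and 1620 in wild type to 1433, 2016 and 113 in knockout, so the pair traded places while the gene total moved little. Pdgfa-201 gave 1394, 1088 and 1319 wild-type counts against 954, 1737 and 3 in knockout, and Pdgfa-202 had 1100, 1669 and 1395 against 1320, 1683 and 2348. For Pdgfra, transcript Pdgfra-202 held 84.6% to 89.3% of the counts in wild type and 64.7%, 85.1% and 88.2% in KO 2, 9 and 22.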
